A study of Mus musculus with 9 samples.

Results

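Claudins and connexins are the membrane proteins of tight junctions and of gap junctions, and their genes were read here in stomachs of newborn mice with and without C/EBPβ, the leucine zipper protein that Cebpb encodes and that regulates transcription. The members are all genes whose name on the array begins with Cldn and a digit (claudins) or with Gja, Gjb, Gjc, Gjd or Gje and a digit (connexins), which gave 45 of the 34844 genes on the array, 25 claudins and 20 connexins. Expression was profiled with 1 Agilent 1-colour array per mouse in 5 C/EBPbeta knockout mice (KO 1 to KO 5) and 4 wild-type mice (WT 1 to WT 4), all killed at birth with no other treatment named. The labels name no part of the stomach, so markers of squamous and glandular epithelium, muscle, vessels and nerves are read together, and in such bulk RNA fewer cells of a type and less RNA per cell cannot be told apart. The source field of the labels calls the mice old, against the protocol and the design. The labels do not state the strain, the sex of the mice or the part of Cebpb that was removed. The question was which junction genes the newborn stomach carries and whether they differ when C/EBPβ is missing.

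Claudins form the strands of tight junctions, where some seal the gap between epithelial cells and others line it with ion-selective channels. Connexins assemble into channels that join the cytoplasm of neighbouring cells and carry ions and small metabolites. The mouse stomach holds a stratified squamous epithelium in the forestomach, which uses skin-type connexins, and a simple glandular epithelium, which uses the gastric claudin Cldn18 and the connexin Gjb1.

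Levels are log2 of the processed signal minus the 75th percentile of that array, so 0 is the 75th percentile and 1 unit is a 2-fold step. They compare arrays for 1 gene and do not rank genes, since each gene is read by its own probe. The 75th percentile ran from 221 on WT 4 to 472 on KO 3, and between 50.9% and 57.2% of the spots per array were well above background. Cebpb itself, read before any member, reached at most −1.58 on the KO arrays and at least 3.00 on the WT arrays, a difference of −5.48 ± 0.30 (standard error; limma's adjusted p = 0.000122), so all 9 arrays matched their labels. Over all genes, 44 of 21602 tested passed an adjusted p below 0.05, 27 higher and 17 lower in KO, and leaving out 1 array at a time moved this count between 11 (without WT 1) and 163 (without WT 4).

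WT 4 stood apart from the other WT arrays in the markers of squamous epithelium. The mean level of the 17 squamous forestomach markers was 4.92, 5.02 and 5.18 on WT 1 to WT 3 and 2.78 on WT 4, against 3.96, 4.10, 4.52, 4.36 and 3.32 on KO 1 to KO 5. The 14 glandular stomach markers averaged 4.21, 4.41 and 4.18 on WT 1 to WT 3 and 4.92 on WT 4, against 5.04, 5.54, 5.24, 4.89 and 5.28 on KO 1 to KO 5. Differences that moved by over 1.5 times or turned sign without WT 4 are therefore given both ways for the members described by array. The arrays lie on 4 slides: slide 1 holds KO 4, KO 5, WT 3 and WT 4, slide 4 holds KO 2, WT 1 and WT 2, and slides 2 and 3 hold KO 3 and KO 1. The mean level of 3 Y-linked genes was −5.16, −6.47 and −7.06 on KO 2, KO 4 and KO 5. It was between −0.39 and 0.04 on the other arrays, WT included, so it was low on 3 of the 5 KO arrays and 0 of the 4 WT arrays. Whether those 3 KO mice were female was not determined, since the labels give no sex. Low did not mean absent on KO 2. Of the 3 genes, Eif2s3y was well above background on 7 arrays, and it read −3.37 on KO 2, −6.61 on KO 4 and −7.14 on KO 5.

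Bases before the transcription start are shown for 4 members, the first 2 because they have alternative starts that the array did not tell apart. Cldn18 and Cldn10 each have 2 promoters in the RefSeq table (build GRCm38.p6), from which transcripts with different first exons are made, and each gene was read here by 1 probe. Shown are the 150 bases before each start, 5′ to 3′ along the gene, in lower case.
Cldn18, first start, chr9:99717268-99717417, minus strand: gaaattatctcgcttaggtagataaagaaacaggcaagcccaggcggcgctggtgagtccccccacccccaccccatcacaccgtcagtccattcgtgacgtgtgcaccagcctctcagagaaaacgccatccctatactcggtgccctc
Cldn18, second start, chr9:99710064-99710213, minus strand: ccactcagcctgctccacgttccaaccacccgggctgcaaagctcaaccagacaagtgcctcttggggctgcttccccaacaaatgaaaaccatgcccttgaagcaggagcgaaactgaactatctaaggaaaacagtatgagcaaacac
Cldn10, first start, chr14:118787721-118787870, plus strand: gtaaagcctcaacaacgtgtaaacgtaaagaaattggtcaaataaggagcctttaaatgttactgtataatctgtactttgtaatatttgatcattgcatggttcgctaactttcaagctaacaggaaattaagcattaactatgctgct
Cldn10, second start, chr14:118854800-118854949, plus strand: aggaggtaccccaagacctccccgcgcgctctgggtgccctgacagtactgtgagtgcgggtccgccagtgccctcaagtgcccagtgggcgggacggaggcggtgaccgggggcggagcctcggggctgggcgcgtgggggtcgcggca
The pair at Cldn10 differed in base composition, with 33.3% G and C before the first start and 74.0% before the second, whereas the pair at Cldn18 had 57.3% and 52.0%.

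Since the missing protein binds DNA, the letters TTGCNNAA, a C/EBP-type sequence, were searched on both strands of all member promoters in that table, from 250 bases before to 50 after the start. They occurred in 1 of 43 promoters of 31 member genes, against 10.8% of all 32851 promoters, and the match lay in a promoter of Cldn14, starting 75 bases before the start (capitals below). The letters TATAAA, searched on the sense strand, occurred in 2 of the 43, against 8.32% of all promoters, in Cldn2 and in 1 promoter of Gjb1, 29 bases before its start (capitals below). A match in these windows is a description of letters, not of a bound site.
Cldn14, chr16:93929818-93929967, minus strand: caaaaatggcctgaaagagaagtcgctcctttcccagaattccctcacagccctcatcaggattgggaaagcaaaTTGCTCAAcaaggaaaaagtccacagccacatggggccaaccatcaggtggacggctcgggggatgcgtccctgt
Gjb1, chrX:101383582-101383731, plus strand: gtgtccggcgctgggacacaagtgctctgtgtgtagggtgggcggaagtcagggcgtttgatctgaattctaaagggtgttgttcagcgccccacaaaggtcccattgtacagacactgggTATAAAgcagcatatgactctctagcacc

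Of the 45 members, 28 had signal well above background on 4 or more arrays and entered the test, 15 claudins and 13 connexins, against a background of 62.0% of all genes. On all 9 arrays, 9 claudins and 11 connexins were well above background. The claudins were Cldn3, Cldn4, Cldn5, Cldn7, Cldn12, Cldn15, Cldn17, Cldn18 and Cldn23. The connexins included Gja1, Gja4, Gja5, Gjb1, Gjb2, Gjb6, Gjc1 and Gjd3. A further 8 members were above background on 4 to 8 arrays, namely Cldn1, Cldn6, Cldn8, Cldn9, Cldn10, Cldn14, Gjc3 and Gjd2. These counts describe the probes, since a dim probe can also read its transcript poorly.

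**Figure D1:**
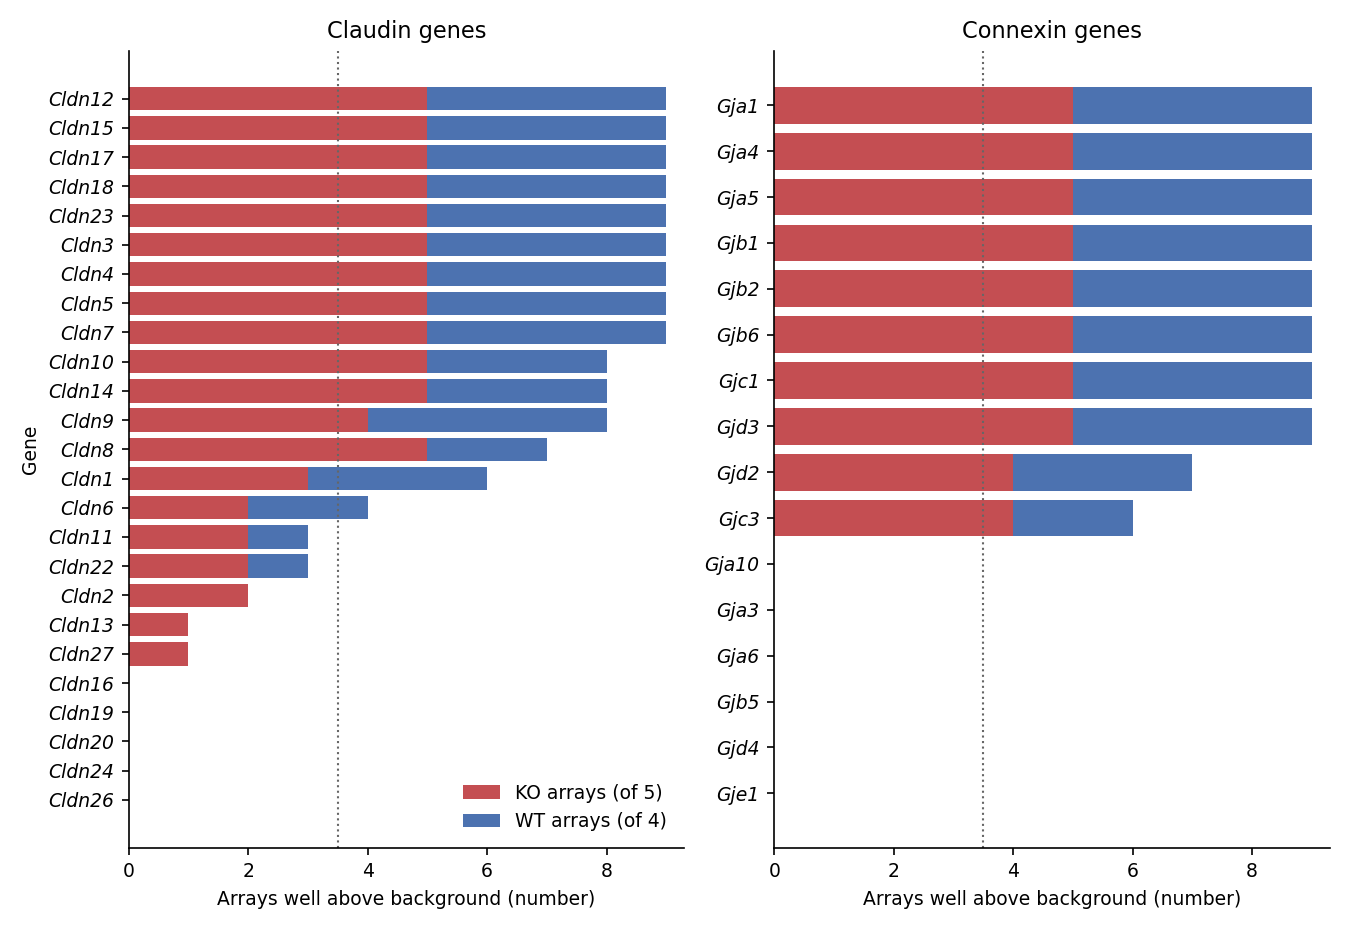
Number of arrays on which each claudin (left) and connexin (right) probe was well above background, with KO arrays (of 5) in red and WT arrays (of 4) in blue. Genes right of the dotted line, on at least 4 arrays, were tested. Of the 41 members drawn, 25 were tested and 11 have no bar.

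The other 17 members were not tested. Among them, 12 were well above background on 0 arrays, including Cldn16 and Cldn19 of the renal tubule, Cldn20, Cldn24, Cldn26, the lens connexin Gja3, Gjb5 of skin and placenta, Gja6, Gja10, Gjd4 and Gje1. Cldn26 is named Tmem114 and Cldn27 Tmem235 in the RefSeq table, where all 45 members were found. Cldn11, the claudin of myelin and Sertoli cells, and Cldn22 were above background on 2 KO arrays and 1 WT array each. Cldn2, a cation and water channel of leaky epithelia, was above background on KO 4 and KO 5, where it read −2.51 and −2.85, against −7.34 to −6.04 on the other 7 arrays. A second Cldn2 probe was above background on 0 arrays, with −6.46 on KO 4 and −6.40 on KO 5. Cldn13 (−1.66) and Cldn27 (−3.57) were above background on KO 2 alone.

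Across the 28 tested members, 0 differed between KO and WT at limma's adjusted p below 0.05, where the background is 0.204% of all genes. At limma's unadjusted p below 0.05 there were 4 members, 3 with the KO mean above WT (Cldn18, Gjb1 and Gjd2), against 5.07% of all genes, and 1 below, against 3.67% of all genes. The median difference was 0.06 over the 28 members, 0.09 over the claudins and −0.11 over the connexins, against 0.01 over all genes. Of the 28, 27 differed by less than 1 on the log2 scale, as did 97.4% of all genes. No member had groups that did not overlap, 0 of 28 against 3.39% of all genes.

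**Figure D2:**
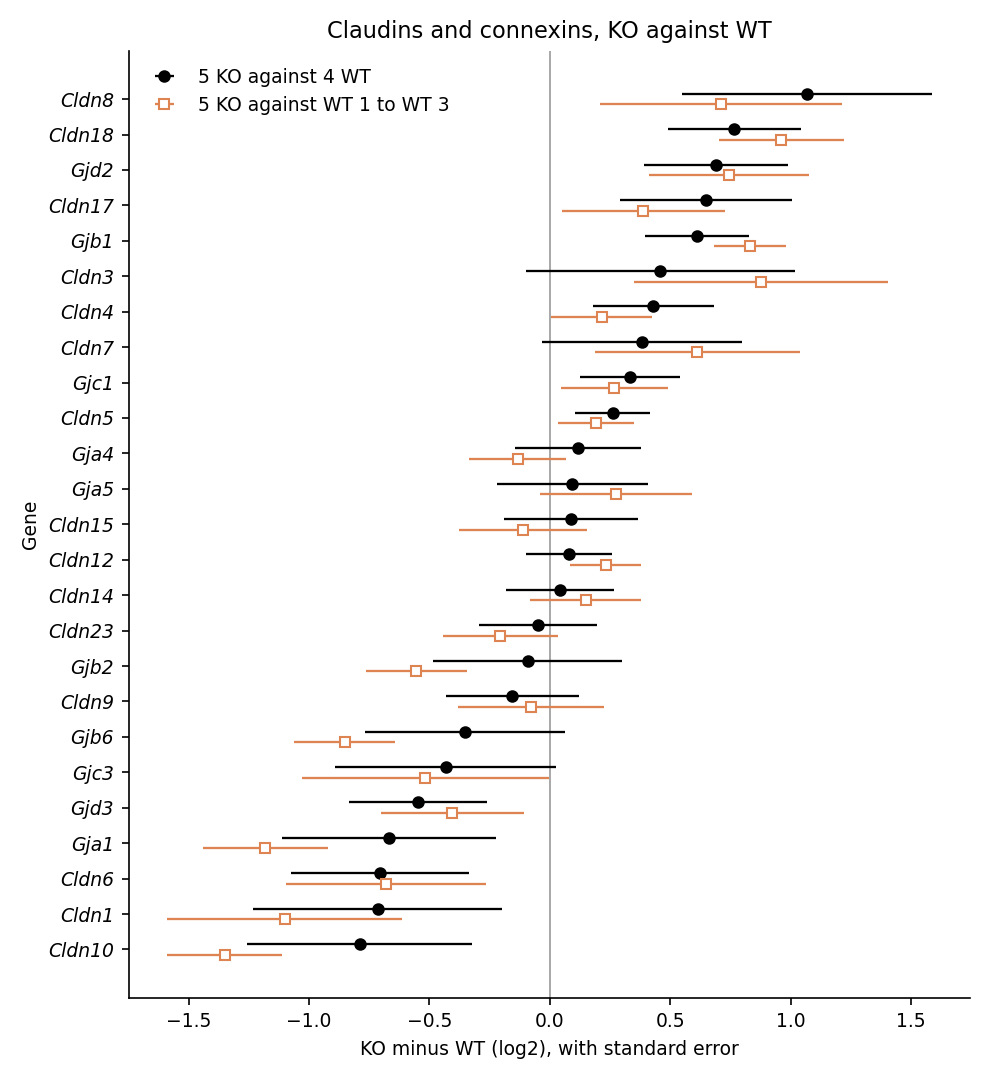
Difference between KO and WT (log2, horizontal axis) for 25 tested members, with limma's standard error as the bar. Filled circles use all 9 arrays and open squares leave out WT 4. With all arrays the differences run from −0.79 (Cldn10) to 1.07 (Cldn8), and without WT 4 those of Cldn10 (−1.35), Gja1 (−1.18) and Gjb6 (−0.85) lie farther below 0.

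The count of members depended on 1 array. Leaving out WT 4 gave 163 genes past the threshold, 0.755% of those tested, and 2 of them were members: Cldn10, which fell in KO with a difference of −1.35 ± 0.24 (limma's adjusted p = 0.0470), and Gjb1, which rose with a difference of 0.83 ± 0.15 (limma's adjusted p = 0.0496). Leaving out any 1 of the other 8 arrays left 0 members past it. WT 4 was the lowest of the 9 arrays for 11 of the 28 members, against 22.5% of all genes. KO 5 was the lowest for 4 members, and its share over all genes was not computed.

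Cldn18 encodes the claudin of the gastric surface and glands. Its probe (mm9, chr9:99592601-99592660) read 1.14, 1.40, 1.35, 0.89 and 1.46 on the KO arrays, in the order of their numbers here and for every gene, and −0.39, 0.54, 0.72 and 1.06 on the WT arrays. All 5 KO arrays lay above WT 1 to WT 3, and WT 4 fell among them, so the groups overlapped. The means were 1.25 ± 0.23 (SD, n = 5) and 0.48 ± 0.62 (SD, n = 4), a difference of 0.77 ± 0.27, or 1.70-fold, with an exact two-sided permutation p of 0.0238 and limma's adjusted p of 0.458. Within slide 1 the difference was 0.29 and within slide 4 it was 1.32, and without WT 4 it was 0.96 ± 0.26 (limma's adjusted p = 0.132). Without WT 1, the lowest array, it was 0.48.

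Cldn3, Cldn4 and Cldn7 are claudins shared by many simple epithelia of the gut and its glands. Cldn3 read −0.81, −0.36, 0.40, −0.31 and 1.84 on the KO arrays and −0.46, −0.66, −1.05 and 0.94 on the WT arrays, a difference of 0.46 ± 0.56 (limma's adjusted p = 0.897). Cldn7 read 2.88, 2.67, 3.21, 3.28 and 4.75 on the KO arrays and 2.92, 2.90, 2.41 and 3.67 on the WT arrays, a difference of 0.38 ± 0.41 (limma's adjusted p = 0.878). Both were highest on KO 5 and next highest on WT 4, the 2 arrays with the lowest squamous marker means, so the spread within a genotype exceeded the difference between genotypes. Without WT 4 the differences were 0.88 ± 0.53 for Cldn3 and 0.61 ± 0.42 for Cldn7, and without KO 5 they were 0.04 and 0.03. Cldn4, a sealing claudin with a receptor role for Clostridium perfringens enterotoxin, did not share this pattern. It read 0.06, 0.20, 0.83, 0.13 and 0.56 on the KO arrays and −0.08, 0.13, 0.36 and −0.72 on the WT arrays, a difference of 0.43 ± 0.25 (limma's adjusted p = 0.702). Without WT 4, its lowest array, the difference was 0.21 ± 0.21. A second Cldn4 probe differed by 0.31, in the same direction. A second Cldn7 probe, annotated to another transcript, was well above background on 0 arrays. The Cldn3 and Cldn4 probes lie 41.9 kb apart on chromosome 5.

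Cldn1, the claudin whose loss opens the skin barrier, read −5.01, −5.17, −3.16, −3.34 and −3.86 on the KO arrays and −2.54, −3.14, −3.34 and −4.55 on the WT arrays. It was well above background on 3 KO and 3 WT arrays, and the difference of −0.72 ± 0.52 had a limma adjusted p of 0.781. It was −1.10 ± 0.49 without WT 4, −0.45 without KO 2 and −0.43 without WT 1. Cldn5, the claudin of blood vessel endothelium, varied least among the claudins named so far, with 2.27, 2.73, 2.63, 2.23 and 2.38 on the KO arrays and 2.30, 2.24, 2.23 and 1.98 on the WT arrays. Its difference was 0.26 ± 0.16 (limma's adjusted p = 0.714). The mean of 10 endothelial markers ran from 0.84 to 1.21 on the KO arrays and from 0.54 to 0.95 on the WT arrays, with WT 4 lowest as for Cldn5. Their summed linear level ran from 72.5 to 88.6 on the KO arrays and from 50.4 to 74.1 on the WT arrays, and there WT 4 was the highest WT array.

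Among the claudins that form channels, Cldn10, an ion-selective pore known from kidney and sweat glands, stood out for 1 array. Its probe (mm9, chr14:119273459-119273518) read −2.77, −3.08, −3.16, −2.37 and −2.19 on the KO arrays and −1.46, −1.37, −1.27 and −3.61 on the WT arrays. The 3 values of WT 1 to WT 3 lay above all KO values and WT 4 lay below them all, where the probe was also not well above background. With all arrays the difference was −0.79 ± 0.47 (limma's adjusted p = 0.71, exact two-sided permutation p = 0.183), and without WT 4 it was the −1.35 given above. Within slide 1, which holds WT 4, the difference was 0.16, and within slide 4 it was −1.67.

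Cldn15, a cation channel of the intestine, differed by 0.09 ± 0.28, and Cldn17, an anion channel described in kidney, by 0.65 ± 0.36. Cldn17 read between 0.69 and 2.38 on the KO arrays and between −0.12 and 1.04 on the WT arrays, highest on KO 3 and lowest on WT 4. Its difference was 0.38 without KO 3 and 0.39 ± 0.34 without WT 4, and that of Cldn15 turned to −0.11 ± 0.27 without WT 4 and to −0.06 without KO 2. Of the 4 channel claudins listed, 3 were tested and 0 passed, with a median of 0.09. Of the 7 claudins listed as sealing (Cldn1, Cldn3, Cldn5, Cldn11, Cldn14, Cldn18 and Cldn19), 5 were tested and 0 passed, with a median of 0.26. That list leaves out Cldn4 and the barrier claudin Cldn8, whose differences were 0.43 and 1.07. The median over all genes was 0.01.

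Cldn8, a barrier claudin of the distal nephron and colon, had the largest difference of the 28 tested members, and its arrays were widely spread. It read −2.83, −2.59, −2.81, −3.90 and −3.54 on the KO arrays and −3.46, −2.90, −5.18 and −5.27 on the WT arrays. It was well above background on all 5 KO arrays and on WT 1 and WT 2, and those WT values lay within the KO range. The difference of 1.07 ± 0.52 had an exact two-sided permutation p of 0.143 and a limma adjusted p of 0.608. With normexp background correction it was 0.11.

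Cldn6, a claudin of embryonic epithelia, was well above background on 4 arrays. It read −4.52, −5.79, −4.31, −4.20 and −4.24 on the KO arrays and −3.81, −3.33, −4.67 and −3.84 on the WT arrays, with KO 2 farthest from the rest, and differed by −0.70 ± 0.37 (limma's adjusted p = 0.647). Its neighbour Cldn9, known from the inner ear, lies 1.14 kb away on chromosome 17 and differed by −0.16 ± 0.28. Cldn12, which lacks the usual binding motif for scaffold proteins at its end, differed by 0.08 ± 0.18, Cldn14 of the inner ear and kidney by 0.04 ± 0.22, and Cldn23 by −0.05 ± 0.25. None of these had an unadjusted p below 0.05.

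Of the connexins of stratified epithelium, Gjb2, Gjb6 and Gja1 lay close together on WT 1 to WT 3 and were low on WT 4. Gjb2, the connexin most often altered in inherited deafness and a skin connexin, read 3.17, 3.27, 3.84, 3.25 and 2.86 on the KO arrays and 3.92, 3.83, 3.75 and 1.98 on the WT arrays. Gjb6, which pairs with Gjb2 in skin and cochlea and lies 24.6 kb from it on chromosome 14, read 1.07, 1.44, 1.88, 1.39 and 0.98 on the KO arrays and 2.11, 2.21, 2.29 and 0.20 on the WT arrays. For both genes WT 4 was the lowest of the 9 arrays and KO 5 the next lowest. The differences were −0.09 ± 0.39 for Gjb2 (limma's adjusted p = 0.978) and −0.35 ± 0.42 for Gjb6 (limma's adjusted p = 0.892). Without WT 4 they were −0.56 ± 0.21 (limma's adjusted p = 0.244) and −0.85 ± 0.21 (limma's adjusted p = 0.108). The Gjb2 difference was between 0.01 and 0.09 without KO 5, WT 1, WT 2 or WT 3, so its sign rests on single arrays.

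Gja1, the widely used connexin of muscle, interstitial cells, vessels and basal keratinocytes, was read by 10 spots per array. It read −0.52, −0.77, −0.11, 0.22 and −0.86 on the KO arrays and 1.00, 0.70, 0.62 and −1.27 on the WT arrays. The SD between the 10 spots of an array was between 0.03 and 0.15, far below the spread between arrays, so the low value of WT 4 was repeated by its spots. The difference was −0.67 ± 0.44 (exact two-sided permutation p = 0.246, limma's adjusted p = 0.758), and without WT 4 it was −1.18 ± 0.26 (limma's adjusted p = 0.0837). Within slide 1 it was 0.01 and within slide 4 it was −1.62. The mean of 8 smooth muscle markers ran from 5.42 to 6.08 on the KO arrays, was 6.36 to 6.48 on WT 1 to WT 3 and 5.72 on WT 4, and its part in the Gja1 values was not tested.

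The mean log2 level of the 17 squamous markers was likewise lowest on WT 4 and next lowest on KO 5, though Trp63 and Dsg3 among them were highest on WT 4, at 4.16 and 1.5. Their part in the values of Gjb2, Gjb6 and Gja1 was not tested. Of those 17 markers, 16 were above background on all 9 arrays, 0 passed the test, and their summed linear level was 618 to 1568 on the KO arrays and 632 to 2381 on the WT arrays, lowest on KO 5 and next lowest on WT 4. Gjb5, a connexin of stratified epithelium as well, was above background on 0 arrays.

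Gjb1, a connexin of liver and of gastric and pancreatic gland cells, ran the other way. Its probe (mm9, chrX:98580902-98580961) read 3.47, 3.79, 3.44, 3.67 and 3.73 on the KO arrays and 2.76, 2.98, 2.63 and 3.67 on the WT arrays. The KO arrays, between 3.44 and 3.79, lay above WT 1 to WT 3, and WT 4 lay among them. The means were 3.62 ± 0.16 (SD, n = 5) and 3.01 ± 0.46 (SD, n = 4), a difference of 0.61 ± 0.22, or 1.53-fold, with an exact two-sided permutation p of 0.0397 and limma's adjusted p of 0.451. It was 0.55 within slide 1 and 0.92 within slide 4, and it passed the threshold when WT 4 was left out, as given above. Gjb1 read higher on KO 2, KO 4 and KO 5, which had the low Y-linked level, than on KO 1 and KO 3. It also did so on WT 4, where that level was high. With the Y-linked level in the model the Gjb1 difference was 0.47 ± 0.29. Of 6 liver markers, 3 had a KO mean above WT and 3 below, with summed levels of 16.2 to 42.0 on the KO arrays and 13.6 to 33.4 on the WT arrays. The sum was highest on KO 2, as Gjb1 was, but only 16.7 on KO 5, where Gjb1 read 3.73. Among the WT arrays it was 33.4 on WT 4 and 13.6 to 15.8 on WT 1 to WT 3. The part of the liver markers in the Gjb1 values was not tested.

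The mean of the 14 glandular markers was arranged as Gjb1 and Cldn18 were. Every KO array lay above WT 1 to WT 3, and WT 4 lay among the KO values. Single markers did not all share this. On WT 4, Gif read 5.48, above all KO arrays, and Atp4a read 3.90, the lowest of the 9 arrays. The part of the glandular markers in the Gjb1 and Cldn18 values was not tested. Of the 14 markers all were above background on 9 arrays, all 14 differences were above 0 with a median of 0.54, and 1 passed the test, Gkn2, a gastrokine of surface mucous cells, at 1.77 ± 0.25 (limma's adjusted p = 0.0278). Their summed linear level was 1895 to 2952 on the KO arrays and 1443 to 2491 on the WT arrays. Of 6 intestine markers, 4 were tested, all with the KO mean above WT and a median difference of 0.88, 0 passed, and Cdx1 and Cdx2 were too dim to test. The mean of those tested was 1.62 on KO 4, 1.81 on KO 5, 0.86 to 1.05 on KO 1 to KO 3 and 0.04 to 0.43 on the WT arrays. KO 4 and KO 5 were also the arrays with signal in 1 Cldn2 probe, and a link was not tested. Of 7 pancreas markers, 5 were tested, with 1 difference above 0, 4 below and 0 past the threshold. The mean of those tested was −0.79 on WT 4, against −2.79 to −2.59 on WT 1 to WT 3 and −3.05 to −2.03 on the KO arrays. Its part in the Gjb1 values was not tested. Beside these marker counts, 11000 of all 21602 genes tested had a difference above 0, the median over all genes was 0.01, and 0.204% passed.

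Gja4 and Gja5 join endothelial cells, above all in arteries. Gja4 read 0.87, 1.11, 0.53, 0.70 and 0.27 on the KO arrays and 0.67, 0.84, 0.98 and −0.17 on the WT arrays, a difference of 0.12 ± 0.26 (limma's adjusted p = 0.955). Gja5 read −0.35, −0.79, −1.25, −0.15 and −0.39 on the KO arrays and −0.19, −1.28, −1.12 and −0.14 on the WT arrays, a difference of 0.09 ± 0.31 (limma's adjusted p = 0.975). The groups overlapped throughout for both genes, and Gja4, like Gjb2 and Gjb6, was lowest on WT 4 and next lowest on KO 5, whereas Gja5 was highest on WT 4. Without WT 4 the Gja4 difference turned to −0.13 ± 0.20 and that of Gja5 was 0.27 ± 0.32. The Gja5 difference also turned below 0 without KO 4, WT 2 or WT 3, at −0.02, −0.11 and −0.05. A second Gja5 probe, annotated to another transcript and above background on 6 arrays, differed by 1.05, with −1.28 on KO 5 and −4.84 to −2.76 on the other 8 arrays.

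Gjc1, a connexin of smooth muscle and of the cardiac conduction system, read 0.83, 0.46, 0.92, 1.23 and 1.18 on the KO arrays and 1.05, 0.44, 0.48 and 0.40 on the WT arrays. WT 1 stood apart from the other WT arrays and lay within the KO range. The difference was 0.33 ± 0.21 (limma's adjusted p = 0.738), with 0.77 within slide 1 and −0.29 within slide 4.

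Gjd2, the connexin of electrical synapses between neurons, was well above background on 4 KO and 3 WT arrays. Its probe (mm9, chr2:113835432-113835491) read −3.74, −4.06, −2.62, −3.02 and −2.87 on the KO arrays and −3.71, −4.24, −4.06 and −3.78 on the WT arrays. KO 3, KO 4 and KO 5 lay above all WT arrays, while KO 1 and KO 2 lay among them. The difference was 0.69 ± 0.30, or 1.61-fold, with an exact two-sided permutation p of 0.0952 and limma's adjusted p of 0.550, and it was 0.98 within slide 1 and −0.08 within slide 4. With normexp background correction it was 0.16. The 8 enteric neuron and glia markers had 7 differences above 0 and 1 below, a median of 0.22 and 0 past the threshold. Among all 21602 genes tested, 11000 differences were above 0 and the median was 0.01.

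The glial connexin Gjc3, of myelinating cells, differed by −0.43 ± 0.46. It read −1.90 on WT 2, without which the difference turned to 0.15, and between −4.58 and −3.90 on the other 8 arrays. Gjd3, described in the mouse atrioventricular node, read between −3.93 and −3.53 on the KO arrays and between −3.88 and −2.45 on the WT arrays, a difference of −0.55 ± 0.29 (limma's adjusted p = 0.644).

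None of the 4 members with an unadjusted p below 0.05 kept it once the Y-linked level entered the model. The differences were then 0.79 ± 0.37 for Cldn18, 0.47 ± 0.29 for Gjb1 and 0.68 ± 0.41 for Gjd2, so these values moved by less than their standard error while the standard errors grew.

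The proteins that work with claudins at the tight junction were read from a list of 32 names, of which 28 were tested. They comprise the scaffolds of the zonula occludens family, occludin and tricellulin relatives, the JAM adhesion molecules, the angulins and the polarity proteins. None passed the threshold, 20 differences were above 0 and 8 below, against 11000 and 10602 of all genes, and the median was 0.24 against 0.01 over all genes. At limma's unadjusted p below 0.05 there were 4 of 28, all with the KO mean above WT, where 5.07% of all genes passed above and 3.67% below. The polarity protein gene Pard6b differed by 0.77 ± 0.30 (limma's adjusted p = 0.498) and the occludin relative Marveld3 by 0.49 ± 0.17 (limma's adjusted p = 0.460). The adhesion molecule genes F11r and Jam2 differed by 0.40 ± 0.16 (limma's adjusted p = 0.515) and 0.40 ± 0.17 (limma's adjusted p = 0.541). Occludin itself (Ocln) differed by 0.32 ± 0.28, and the scaffold genes Tjp1 and Tjp3 by 0.37 ± 0.17 and 0.17 ± 0.20. Of the pannexins, which form single-membrane channels related in shape to connexins, Panx1 was tested and differed by −0.03 ± 0.15, while Panx2 and Panx3 were too dim to test.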

How the data were processed

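Processed spot intensity, on a linear scale, was made by the authors with Agilent Feature Extraction, version 10.5.1.1 with protocol GE1_107_Sep09 per the file headers and version 9.1 per the submitters' processing notes. The headers place the probes on mouse build mm9. Per the labels' protocols, 0.3 µg of total RNA was copied from oligo dT and labelled with Cy3. Other deposited columns flag spots as well above background, saturated or outlier, a yes or no mark of another kind than a level. The authors' deposited series matrix holds log2 values. It equals log2 of the processed signal minus 1 shift per array and a centre per probe, with a largest deviation of 3.62e-06 over 55228 probes. What the centre is stays unknown. The column medians were 0.0436, 0.217, −0.124, 0.0347 and −0.137 on the KO arrays and −0.279, −0.161, 0.224 and 0.381 on the WT arrays.

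Of 62976 spots per array, 3671 controls and all outlier spots were left out, and 0 were saturated. Spots of a probe were averaged on the log2 scale. The value is log2 of the processed signal minus the 75th percentile of the array. Of 55681 probes, 30205 were well above background on at least 4 arrays, and where a gene had several, the one with the highest mean stood for it, leaving 21602 genes. KO was compared with WT in limma 3.58.1 (lmFit, eBayes, two-sided, no covariate) in R 4.3.3, with Benjamini-Hochberg adjustment over these genes. Errors of differences are limma's moderated standard errors, and no p was adjusted over the members alone. Single values also had an exact permutation test, in which 126 splits of the 9 arrays are possible and p cannot go below 0.00794. Samples are separate mice per the labels, and the number of arrays limits the precision. Which part of a transcript a probe reads was not determined here. Counts cover all members, while the values of some members and of 1 partner gene are not reported here.

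The members, the lists of genes and the naming rule were chosen with earlier results of these data known. That rule gives array values for members past a threshold (adjusted or unadjusted p, non-overlap, a difference of at least 1 on the log2 scale, an array far from its group) and for a fixed set of members with a known place in the stomach. Alternatives were normexp background correction (offset 50), quantile normalization, the deposited matrix, other filters and probe rules, slide, replicate number or Y-linked level in the model, and leaving out each array. A random slide effect, single probes and the unadjusted counts under each alternative were added after seeing the data. On simulated data with the means and spreads of the 21602 genes, 25, 43, 46 and 50 of 50 genes changed by 1, 2, 3 and 4 log2 units were recovered, with 10 false calls.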

Additional observations from a re-analysis of the deposited data

Results flagged for a closer look

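Among 56 groups of 4 or 5 arrays, made of 28 members in each genotype, 6 held an array far from the others. The gap of that array to its nearest neighbour was large against the range of the group. Chance gives about 1 in 20 groups when genes vary independently. The share over all genes was not computed, so the count cannot be read as particular to the members. WT 4 was also the lowest array for 22.5% of all genes. Of the 6, 4 lay on WT 4: Cldn10 at −3.61, Gja1 at −1.27, Gjb2 at 1.98 and Gjb6 at 0.20, each far below WT 1 to WT 3. The mean of the squamous forestomach markers was also lowest on WT 4 (2.78), and its part in these values was not tested. The other 2 were Cldn6 on KO 2 at −5.79, below the other KO arrays, and Gjc1 on WT 1 at 1.05, above the other WT arrays.

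Signal well above background was also found in members too dim to be tested and above background on 0 WT arrays. Cldn2 read −2.51 on KO 4 and −2.85 on KO 5, with no such signal in its second probe. On KO 2, Cldn13 read −1.66 and Cldn27 read −3.57. No fold is given for these genes, since the KO mean is not above the lowest measurable level.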

How the results depend on the processing

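The number of claudins and connexins past the threshold was 0 with all 9 arrays and under every alternative but 1, with a range of 0 to 2 when 1 array was left out, the 2 being Cldn10 and Gjb1 without WT 4. The count of all genes past it was 44 and became 22 without a filter on dim probes, 5 with slide as a block, 4 with the replicate block, 4 with the Y-linked level in the model and 11 to 163 when 1 array was left out. It was 34 without KO 1, 28 without KO 2, 18 without KO 3, 23 without KO 4, 41 without KO 5, 11 without WT 1, 17 without WT 2, 17 without WT 3 and 163 without WT 4. Members at an unadjusted p below 0.05 numbered 4, against 2 with the replicate block, 0 with the Y-linked level, 3 with slide as a block and 3 to 7 when 1 array was left out (7 without WT 4). The replicate numbers did not pair the arrays: the correlations of same-numbered arrays were −0.30, 0.12, 0.15 and −0.48. With slide as a random block, an alternative added after seeing the data, 42 genes and 0 members passed. Of the 28 tested members, 16 kept the sign of their difference in all 19 alternatives that could be run for them and 12 changed it in at least 1, all 12 without passing the threshold. Cldn8 moved from 1.07 to 0.11 and Gjd2 from 0.69 to 0.16 with normexp background correction, and the cause was not tested. Dim probes limit Cldn1, Cldn6, Cldn8, Cldn9, Cldn10, Cldn14, Gjc3 and Gjd2, which were not well above background on every array.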
